A study of Mus musculus with 48 samples.

Results

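NF-kB signalling and its target cytokines were followed through 10 listed genes, chosen by name from the pathway with earlier results of these data known. Of these, 9 have a row among the 24537 gene rows of the count table, namely the cytokines Il6, Il23a and Osm, the inhibitors Nfkbia, Nfkbiz and Tnfaip3, the kinase Map3k14, and the subunits Nfkb1 and Relb. Tnf is not analysed here. The wider pathway lists were chosen in the same way. Shares and medians of either set beside all genes are therefore descriptions of chosen genes, not of an unselected set. Poly(A) RNA of bulk immune cell populations, sorted from mouse colon tumours, was sequenced from its 3′ end. All mice had received azoxymethane, a carcinogen, and dextran sulfate sodium, an agent of colitis, and all samples are labelled day 85. The genotypes are labelled ctrl and CCL17 ko, Ccl17 being a chemokine gene, and each was sorted into 4 populations by the surface proteins Ly6C, a monocyte marker, and MHC class II, which presents antigen. How the Ccl17 allele was made and which bases it lacks are not given, nor is the age or sex of the mice. Some ko mice shared cages with ctrl mice and some did not, and the labels do not say which samples came from which. The labels do not say whether replicates were different animals, so p-values here measure the spread between these samples, which may be technical.

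NF-kB is a family of dimeric transcription factors that inhibitors hold in the cytoplasm. Signals through Toll-like, TNF and IL-1 receptors lead to the breakdown of IkB-alpha, the product of Nfkbia, and the freed dimers enter the nucleus and switch on cytokine genes together with their own inhibitors. In a second branch, the kinase NIK, encoded by Map3k14, leads to dimers that contain RelB. In colon tumours that follow colitis, myeloid cells are a known source of IL-6, IL-23 and oncostatin M, which act on neighbouring cells through STAT3.

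Because Nfkbia and Tnfaip3 are textbook examples of inhibitors that NF-kB itself switches on, the bases before their starts are shown with those of Il6. The RefSeq (GRCm38.p6) promoter table used here has entries for 4 of the 9 genes, and the 250 bases before each start were searched on both strands for the NF-kB consensus, a motif of 10 bases that overlaps no other motif searched. The last 130 bases before the start are printed for the 3 genes with a match, read along the gene's own strand, with the matches in capitals. They lie at chr5:30012984-30013113 (+) for Il6, chr12:55492648-55492777 (-) for Nfkbia and chr10:19015411-19015540 (-) for Tnfaip3, and none of the bases is exonic.
Il6: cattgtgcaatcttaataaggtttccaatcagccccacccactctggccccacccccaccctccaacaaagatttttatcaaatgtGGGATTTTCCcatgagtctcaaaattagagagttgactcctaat
Nfkbia: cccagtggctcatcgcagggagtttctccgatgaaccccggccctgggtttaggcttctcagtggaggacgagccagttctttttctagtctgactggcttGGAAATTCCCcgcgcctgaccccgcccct
Tnfaip3: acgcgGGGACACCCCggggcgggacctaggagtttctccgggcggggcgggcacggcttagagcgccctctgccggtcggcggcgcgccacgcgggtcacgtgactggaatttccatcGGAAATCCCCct
The match in Il6 ends 35 bases before the start on the gene's strand, and that in Nfkbia ends 20 bases before it on the opposite strand. Tnfaip3 holds a match on its own strand 116 bases before the start and another on the opposite strand 3 bases before it. Its printed bases precede the RefSeq start but lie inside the GENCODE span of the gene, chr10:19000910-19015657, which begins farther upstream. Neither a second Tnfaip3 promoter in RefSeq nor the Map3k14 promoter held the motif. Of all 32851 promoters in the table, 1281 (3.9%) held it within the same 250 bases, and a match is a description of the letters, not of binding.

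The 39 samples used were 3 ctrl and 4 ko of Ly6Chi MHCIIhi, 4 and 4 of Ly6Chi MHCIIlo, 8 and 8 of Ly6Clo MHCIIhi, and 4 and 4 of Ly6Clo MHCIIlo, with 34362 to 891461 counts each. Levels are CPM, that is counts relative to the library total, with library sizes scaled by TMM, and CPM compare a gene between samples, not genes with each other. The sort labels were matched by the sort genes: Ly6c2 averaged 529 and 1212 CPM in the Ly6Chi populations against 25.8 and 42.6 in the Ly6Clo ones, and Cd74, the MHC class II invariant chain, 9807 and 13440 in the MHCIIhi against 1844 and 2545 in the MHCIIlo ones. The targeted gene Ccl17 averaged 167 CPM in Ly6Clo MHCIIhi ctrl, from 0 to 773, and 3.03 in ko, and its other groups were low in both genotypes. Summed macrophage markers (12 genes) were higher in the Ly6Clo groups, with medians from 31040 to 42900 CPM against 5441 to 11660 in the Ly6Chi groups. Neutrophil markers, all 12 of them detected, summed to medians of 9793 to 13730 CPM in the MHCIIlo groups and 569 to 1344 in the MHCIIhi groups. In bulk samples, fewer cells of a type and less RNA per cell cannot be told apart.

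One library stands apart. Replicate 1 of Ly6Chi MHCIIhi ctrl, with 78264 counts, held haemoglobin genes at 298100 CPM, against at most 12890 in any other sample, and neutrophil markers at 78900 CPM. Another ctrl replicate of that population had 34362 counts, and a further one with 8409 counts was left out, so its ctrl group is the least precise. In Ly6Chi MHCIIhi, Ly6Chi MHCIIlo and Ly6Clo MHCIIlo all ctrl libraries carry A/T-rich sample barcodes and all ko libraries G/C-rich ones, which means that the effects of barcode and of genotype cannot be told apart. In Ly6Clo MHCIIhi both classes occur in both genotypes but not equally, with 8 A/T-rich and 4 G/C-rich libraries in ctrl and 4 and 8 in ko.

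Across the populations, the inhibitor gene Nfkbia, the subunit Nfkb1 and the cytokine Osm were lower in Ly6Clo than in Ly6Chi cells, while the kinase Map3k14 and the subunit Relb were higher in Ly6Clo MHCIIhi than in Ly6Clo MHCIIlo cells. Tests were edgeR's quasi-likelihood F test with genotype in the model and Benjamini-Hochberg adjustment over all genes tested, and a gene is called at an adjusted p under 0.05. Every adjusted p below comes from that test unless another is named. The comparisons between populations reuse the same samples, so each is given with its own values. In the plot of levels by sample, most Ly6Chi points lie above most Ly6Clo points for Osm, Nfkbia and Nfkb1, with the haemoglobin-rich library under all Ly6Clo samples for Osm.

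**Figure D1:**
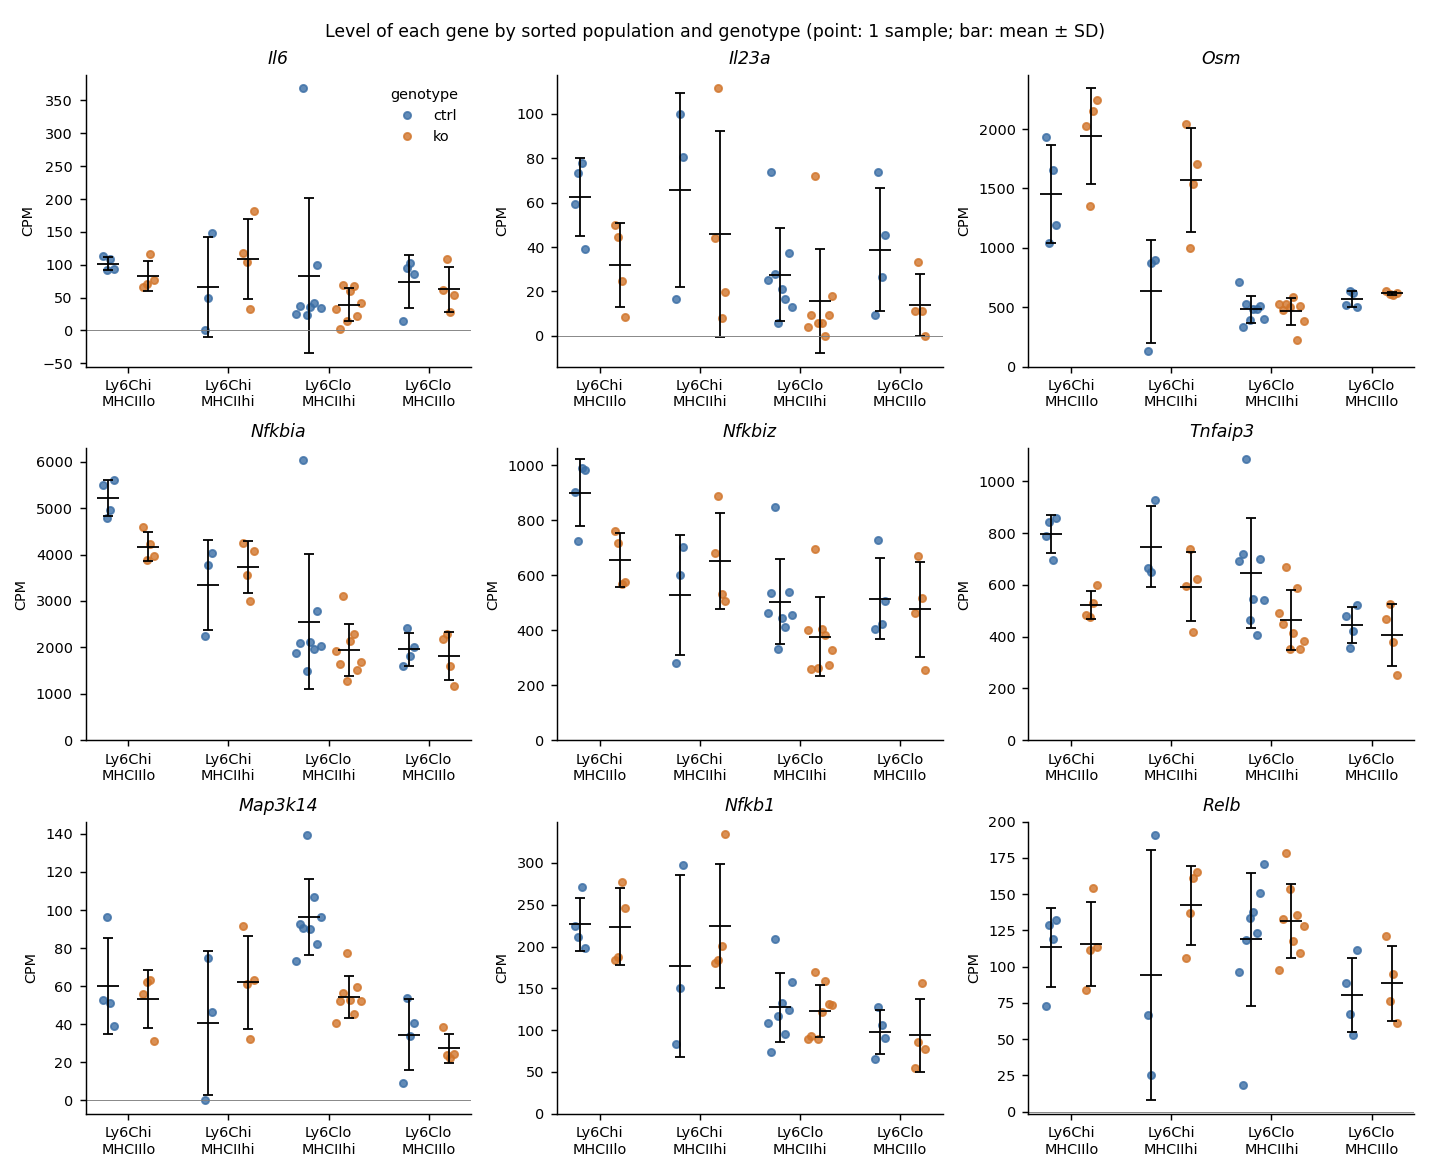
Level of each of the 9 genes (CPM, TMM-scaled library sizes, y axis) in each of 39 samples, by population and genotype (x axis). Each point is a sample and each bar the mean with its SD; for Osm the 8 Ly6Chi MHCIIlo samples lie between 1039 and 2244 CPM, above all Ly6Clo samples.

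Ly6Clo MHCIIlo cells differed from Ly6Chi MHCIIlo cells in 6 of 9 genes, all lower, where 18.2% of all 4336 genes tested were called lower and 37.4% were called in either direction. The median log2 fold of the 9 genes was -0.77, against 0.05 over all genes tested, and all 9 folds were negative, as were 46.4% of all genes' folds. Between Ly6Clo MHCIIhi and Ly6Chi MHCIIlo, 5 genes were called lower and 1 higher, where 21% of all genes were called lower, 21.3% higher and 42.3% in all, and the members' median was -0.85 against 0.01. Ly6Clo MHCIIhi against Ly6Chi MHCIIhi gave 4 lower calls and none higher, with 7.45% of all genes called lower and 15.8% in all (median -0.70 against 0.02). Ly6Clo MHCIIlo against Ly6Chi MHCIIhi gave 4 lower calls, with 11.8% of all genes called lower and 23.4% in all (median -0.82 against 0.03). That last count was 7 without the haemoglobin-rich library and 2 without Ly6Chi MHCIIhi ctrl 4, and with ctrl samples alone both contrasts with Ly6Chi MHCIIhi gave 0.

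Within one level of Ly6C fewer genes differed. Ly6Clo MHCIIhi against Ly6Clo MHCIIlo gave 2 higher calls, where 11.9% of all genes were called higher, and 1 lower call, where 13.6% were called lower and 25.5% in all. The 3 called of 9 are thus near the share of all genes. Between Ly6Chi MHCIIhi and Ly6Chi MHCIIlo none of the 9 was called by edgeR, where 2.86% of all genes were. There Osm had an unadjusted p of 0.0342 and the other 8 genes lay above 0.05, a level under which 15.6% of all genes lay.

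**Figure D2:**
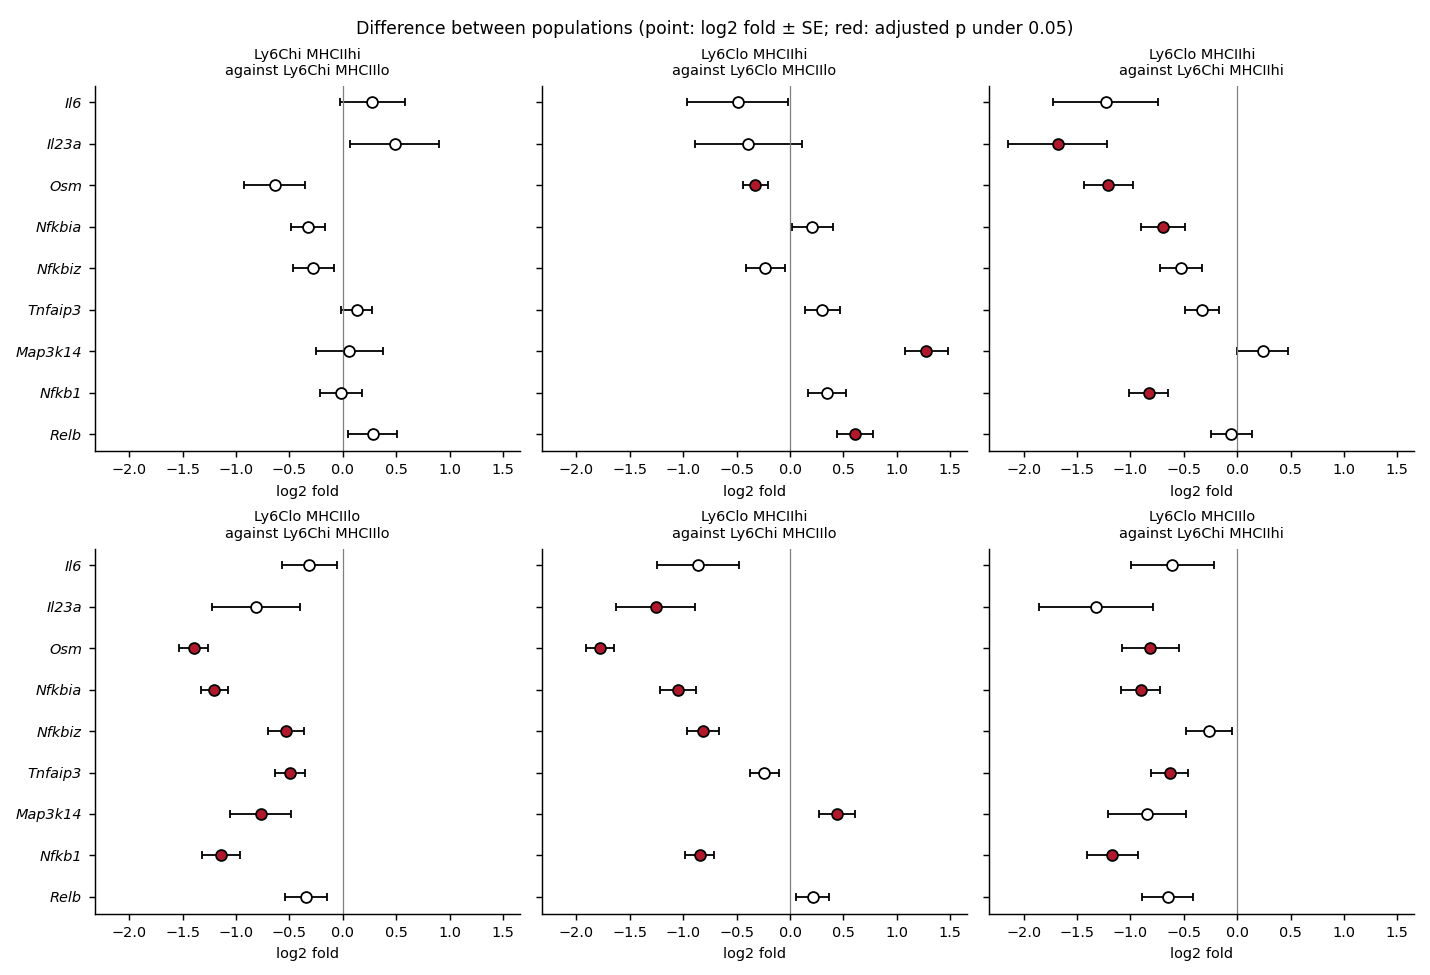
Log2 fold between populations (x axis) with its standard error for each of the 9 genes (y axis), 1 panel per pair of populations, from edgeR with genotype in the model. Red points have an adjusted p under 0.05; Osm, Nfkbia and Nfkb1 are red in all 4 panels that set Ly6Clo against Ly6Chi.

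Oncostatin M, encoded by Osm (chr11:4236420-4241026, + strand, GRCm38, protein coding), is an IL-6 family cytokine that acts on stromal and epithelial cells. Osm ran from 1039 CPM through a median of 1793 to 2244 in the 8 Ly6Chi MHCIIlo samples, and from 133 through 999 to 2042 in the 7 Ly6Chi MHCIIhi samples. It ran from 506 through 613 to 635 CPM in the 8 Ly6Clo MHCIIlo samples and from 226 through 494 to 709 in the 16 Ly6Clo MHCIIhi samples. The Ly6Chi MHCIIlo samples overlapped neither Ly6Clo population, and among Ly6Chi MHCIIhi samples the lowest is the library rich in haemoglobin. Osm was lower in Ly6Clo MHCIIlo than in Ly6Chi MHCIIlo by a log2 fold of -1.40 (SE 0.14, adjusted p = 1.15e-08) and in Ly6Clo MHCIIhi than in Ly6Chi MHCIIlo by -1.78 (SE 0.13, adjusted p = 3.80e-12). In Ly6Clo MHCIIhi against Ly6Chi MHCIIhi its fold was -1.21 (SE 0.23, adjusted p = 0.000392), with all 16 samples under the Ly6Chi MHCIIhi mean. With ctrl samples alone, 8 against 3, that fold was -0.46 and was not called (adjusted p = 0.606). Nor was it called with equal replicate numbers as a block. Summed neutrophil markers had medians of 10940 and 12460 CPM in Ly6Chi MHCIIlo ctrl and ko, against 569 and 747 in Ly6Clo MHCIIhi. Their part in the Osm difference between these populations was not tested.

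The smaller Osm differences depended on single libraries and settings. Against Ly6Chi MHCIIhi, Osm in Ly6Clo MHCIIlo had a fold of -0.82 (SE 0.27, adjusted p = 0.0312), which became -1.05 (adjusted p = 1.58e-05) without the haemoglobin-rich library. That call was lost without any one of Ly6Chi MHCIIhi ctrl 3 or 4 or ko 1 or 4, or Ly6Clo MHCIIlo ko 1, 2, 3 or 4, with adjusted p from 0.0565 to 0.0777, and with ctrl samples alone (-0.18, adjusted p = 0.899). In Ly6Clo MHCIIhi against Ly6Clo MHCIIlo, Osm was lower by -0.32 (SE 0.11, adjusted p = 0.0341), in 15 of 16 samples. Summed neutrophil markers (12 genes), whose medians are higher in the MHCIIlo groups as given above, move with this difference, and their part in it was not tested. The call was lost without any one of Ly6Clo MHCIIlo ctrl 2 or 3 or ko 1, 2, 3 or 4, with adjusted p from 0.0692 to 0.0879, and in 7 of 11 other settings, with adjusted p up to 0.442. Between the Ly6Chi populations the Osm fold of -0.64 (SE 0.28) was not called (adjusted p = 0.269), and it was called with all 8 groups in 1 fit (-0.74, adjusted p = 0.0290).

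IL-23 drives inflammatory T cells and innate lymphoid cells, and Il23a (chr10:128296139-128298752, - strand) encodes its p19 subunit. Its counts were few, so its levels carry a large counting error. Il23a ran from 8.05 CPM through a median of 44 to 112 in Ly6Chi MHCIIhi and from 8.50 through 47.2 to 78.1 in Ly6Chi MHCIIlo. In Ly6Clo MHCIIlo it ran from 0 through 18.8 to 74.1 and in Ly6Clo MHCIIhi from 0 through 14.8 to 74.0, so all populations overlapped. The 0 in Ly6Clo MHCIIlo ko 4 allows up to 12.3 CPM at 3 counts, and that in Ly6Clo MHCIIhi ko 6 up to 67.8, for counting error only. Il23a was lower in Ly6Clo MHCIIhi than in Ly6Chi MHCIIhi by -1.68 (SE 0.46, adjusted p = 0.0118) and than in Ly6Chi MHCIIlo by -1.26 (SE 0.37, adjusted p = 0.00677). The first call was lost without Ly6Chi MHCIIhi ko 2 (-1.21, adjusted p = 0.113) and with ctrl samples alone (-1.61, adjusted p = 0.157). Both calls were lost with equal replicate numbers as a block. In Ly6Clo MHCIIlo against Ly6Chi MHCIIlo the fold of -0.81 (adjusted p = 0.129) was called without Ly6Clo MHCIIlo ctrl 2 (-1.13, adjusted p = 0.0398) and in no other fit without 1 library. In Ly6Clo MHCIIlo against Ly6Chi MHCIIhi the fold of -1.32 (adjusted p = 0.0766) was called without the haemoglobin-rich library (-1.50, adjusted p = 0.0280) and without Ly6Clo MHCIIlo ctrl 2 (-1.56, adjusted p = 0.0391).

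Interleukin 6, encoded by Il6 (chr5:30013114-30019981, + strand), signals through STAT3 and promotes growth and survival of epithelial cells. Il6 ran from 65.5 CPM through a median of 92.7 to 116 in Ly6Chi MHCIIlo, its tightest population, and from 0 through 105 to 181 in Ly6Chi MHCIIhi. It ran from 14.1 through 73.4 to 109 CPM in Ly6Clo MHCIIlo and from 2.37 through 36.3 to 369 in Ly6Clo MHCIIhi. The highest value of all samples, Ly6Clo MHCIIhi ctrl 3, thus lies in the population with the lowest median, and the 0 lies in the haemoglobin-rich library, where 3 counts would be 49.9 CPM. The fold of Ly6Clo MHCIIhi against Ly6Chi MHCIIhi was -1.23 (SE 0.49) and missed the threshold (adjusted p = 0.0903), and it was called without the haemoglobin-rich library (-1.42, adjusted p = 0.0408). Against Ly6Chi MHCIIlo it was -0.86 (SE 0.39, adjusted p = 0.0730).

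Nfkbia (chr12:55489410-55492647, - strand) encodes IkB-alpha, whose printed promoter holds the NF-kB motif close to the start. It ran from 3883 CPM through a median of 4697 to 5603 in Ly6Chi MHCIIlo and from 2243 through 3773 to 4246 in Ly6Chi MHCIIhi. In Ly6Clo MHCIIlo it ran from 1168 through 1904 to 2418, and in Ly6Clo MHCIIhi from 1279 through 2004 to 6048. The Ly6Clo MHCIIlo samples all lay under the Ly6Chi MHCIIlo samples, and Ly6Clo MHCIIhi ctrl 3 was the highest sample of all. Nfkbia was lower in Ly6Clo MHCIIlo than in Ly6Chi MHCIIlo (-1.20, SE 0.13, adjusted p = 5.17e-08) and Ly6Chi MHCIIhi (-0.90, SE 0.18, adjusted p = 0.00115). It was lower in Ly6Clo MHCIIhi than in Ly6Chi MHCIIlo (-1.05, SE 0.17, adjusted p = 7.04e-06) and Ly6Chi MHCIIhi (-0.70, SE 0.21, adjusted p = 0.0187), with 15 of 16 samples under the mean of the other population in both. The calls against Ly6Chi MHCIIhi were lost with ctrl samples alone (-0.81, adjusted p = 0.242, and -0.47, adjusted p = 0.611), and that of Ly6Clo MHCIIhi also with all libraries kept (-0.59, adjusted p = 0.0558). The call of Ly6Clo MHCIIhi was lost with equal replicate numbers as a block too.

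Nfkbiz (chr16:55811375-55838899, - strand) encodes IkB-zeta, a nuclear member of the inhibitor family that also helps to switch on Il6. Nfkbiz ran from 569 CPM through a median of 744 to 992 in Ly6Chi MHCIIlo and from 283 through 600 to 887 in Ly6Chi MHCIIhi. It ran from 254 through 485 to 727 in Ly6Clo MHCIIlo and from 261 through 409 to 850 in Ly6Clo MHCIIhi, so every pair of populations overlapped. It was lower in Ly6Clo MHCIIlo (-0.53, SE 0.17, adjusted p = 0.0140) and in Ly6Clo MHCIIhi (-0.81, SE 0.15, adjusted p = 4.61e-05) than in Ly6Chi MHCIIlo. Against Ly6Chi MHCIIhi, the fold of Ly6Clo MHCIIhi was -0.53 (adjusted p = 0.0671) and was called without the haemoglobin-rich library (-0.67, adjusted p = 0.0122).

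Tnfaip3 (chr10:19000910-19015657, - strand) encodes A20, a ubiquitin-editing enzyme that ends NF-kB signalling and whose printed promoter holds the motif at both ends of the window. Tnfaip3 ran from 477 CPM through a median of 647 to 857 in Ly6Chi MHCIIlo and from 418 through 650 to 929 in Ly6Chi MHCIIhi. It ran from 250 through 446 to 528 in Ly6Clo MHCIIlo, the lowest population, and from 351 through 518 to 1087 in Ly6Clo MHCIIhi. It was lower in Ly6Clo MHCIIlo than in Ly6Chi MHCIIlo (-0.49, SE 0.14, adjusted p = 0.00874) and Ly6Chi MHCIIhi (-0.63, SE 0.17, adjusted p = 0.0106), with all 8 samples under either mean. The second call was lost without Ly6Chi MHCIIhi ctrl 4 (-0.54, adjusted p = 0.0505), without the count filter (-0.60, adjusted p = 0.0819) and with ctrl samples alone (-0.81, adjusted p = 0.144). The folds of Ly6Clo MHCIIhi against Ly6Chi MHCIIlo (-0.24, adjusted p = 0.152) and Ly6Chi MHCIIhi (-0.33, adjusted p = 0.174) were not called.

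Map3k14 (chr11:103219762-103267472, - strand) encodes NIK, the kinase of the second NF-kB branch, and its mean was highest in Ly6Clo MHCIIhi. It overlaps another gene on the same strand, so its counts may hold reads of that gene. Map3k14 ran from 40.8 CPM through a median of 75.4 to 140 in Ly6Clo MHCIIhi and from 9.37 through 29.3 to 53.9 in Ly6Clo MHCIIlo. All 16 Ly6Clo MHCIIhi samples lay above the Ly6Clo MHCIIlo mean of 30.9, although the ranges overlapped, and the fold was 1.28 (SE 0.20, adjusted p = 2.22e-05). In Ly6Chi MHCIIlo it ran from 31.2 through 54.6 to 96.5, and in Ly6Chi MHCIIhi from 0 through 61.3 to 91.7, with the 0 in the haemoglobin-rich library.

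Smaller Map3k14 differences depended on single libraries and settings. It was lower in Ly6Clo MHCIIlo than in Ly6Chi MHCIIlo (-0.77, SE 0.29, adjusted p = 0.0362), with all 8 samples under the mean. That call was lost without Ly6Clo MHCIIlo ctrl 1 (-0.65, adjusted p = 0.0585) or ko 2 (-0.77, adjusted p = 0.0501), and without Ly6Chi MHCIIlo ctrl 2 (-0.69, adjusted p = 0.0620) or ko 2 (-0.75, adjusted p = 0.0521), and with ctrl samples alone (-0.71, adjusted p = 0.267). It was higher in Ly6Clo MHCIIhi than in Ly6Chi MHCIIlo (0.44, SE 0.17, adjusted p = 0.0371), in 10 of 16 samples. That call was lost without any one of Ly6Chi MHCIIlo ctrl 1, 3 or 4 or ko 4, with folds of 0.34 to 0.39 and adjusted p of 0.0881 to 0.113, and in 5 of 11 other settings, with adjusted p up to 0.139. In Ly6Clo MHCIIlo against Ly6Chi MHCIIhi the fold of -0.85 (adjusted p = 0.0982) was called without the haemoglobin-rich library (-1.0, adjusted p = 0.0234).

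Nfkb1 (chr3:135584655-135691547, - strand) encodes p105, the precursor of the p50 subunit, and its counts may hold reads of an overlapping gene on the same strand. Nfkb1 ran from 184 CPM through a median of 218 to 277 in Ly6Chi MHCIIlo and from 83.1 through 184 to 335 in Ly6Chi MHCIIhi. It ran from 55.2 through 88.4 to 156 in Ly6Clo MHCIIlo and from 74.0 through 123 to 209 in Ly6Clo MHCIIhi. The Ly6Clo MHCIIlo samples all lay under the Ly6Chi MHCIIlo samples. Nfkb1 was lower in Ly6Clo MHCIIlo than in Ly6Chi MHCIIlo (-1.14, SE 0.18, adjusted p = 1.42e-05) and Ly6Chi MHCIIhi (-1.17, SE 0.24, adjusted p = 0.00124). It was lower in Ly6Clo MHCIIhi than in Ly6Chi MHCIIlo (-0.85, SE 0.13, adjusted p = 6.40e-06) and Ly6Chi MHCIIhi (-0.83, SE 0.18, adjusted p = 0.00198). With ctrl samples alone the calls against Ly6Chi MHCIIhi were lost (-1.06, adjusted p = 0.178, and -0.72, adjusted p = 0.289). That of Ly6Clo MHCIIhi was also lost with equal replicate numbers as a block. Between the Ly6Clo populations its fold of 0.35 (adjusted p = 0.150) was called without Ly6Clo MHCIIlo ko 3 (0.51, adjusted p = 0.0364) and in no other fit without 1 library.

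Relb (chr7:19606217-19629438, - strand) encodes the subunit that the second branch activates. It ran from 18.5 CPM through a median of 131 to 179 in Ly6Clo MHCIIhi and from 52.9 through 82.6 to 121 in Ly6Clo MHCIIlo. In Ly6Chi MHCIIlo it ran from 72.8 through 116 to 155 and in Ly6Chi MHCIIhi from 25.0 through 137 to 191, so Ly6Clo MHCIIlo was the lowest population and all overlapped. Relb was higher in Ly6Clo MHCIIhi than in Ly6Clo MHCIIlo (0.61, SE 0.17, adjusted p = 0.00969), in 15 of 16 samples. This call was lost in 2 of 11 other settings, one of them ctrl samples alone (0.67, adjusted p = 0.131). In Ly6Clo MHCIIlo against Ly6Chi MHCIIhi the fold of -0.65 (SE 0.24, adjusted p = 0.0522) was called without the haemoglobin-rich library (-0.74, adjusted p = 0.0218). It was also called without Ly6Chi MHCIIhi ctrl 3 or ko 1 or Ly6Clo MHCIIlo ctrl 4 or ko 1, with folds of -0.75 to -0.71 and adjusted p of 0.0248 to 0.0481.

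The order of mean levels followed from these values. From Ly6Chi MHCIIlo through Ly6Chi MHCIIhi to the Ly6Clo populations, the means stood in that order for Osm, Nfkbia, Nfkbiz, Nfkb1 and Il6, with the highest mean 3.58, 2.50, 1.77, 2.36 and 1.51 times the lowest. For Il6 the means of Ly6Chi MHCIIlo and Ly6Chi MHCIIhi were close, at 92.0 and 90.6 CPM, and their medians of 92.7 and 105 stood the other way. For Il23a and Tnfaip3 the Ly6Chi MHCIIhi mean was highest, at 2.53 and 1.55 times the lowest. For Map3k14 and Relb the Ly6Clo MHCIIhi mean was highest, at 2.44 and 1.49 times that of Ly6Clo MHCIIlo. The 2 Ly6Chi populations were neighbours that did not differ beyond the test's threshold for any of the 9 genes.

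Between genotypes, none of the 9 genes was called by edgeR in any population. In Ly6Chi MHCIIhi 0 of 9 tested genes were called, with 0% of all 3509 genes called, and in Ly6Clo MHCIIhi 0 of 8, with 0% of all 5660. In Ly6Chi MHCIIlo 0 of 9 were called against 0.0756% of all genes, and in Ly6Clo MHCIIlo 0 of 7 against 0.0314%. At an unadjusted p under 0.05, genes below the threshold were Osm in Ly6Chi MHCIIhi, Tnfaip3, Nfkbiz, Nfkbia and Il23a in Ly6Chi MHCIIlo, and Map3k14, Tnfaip3 and Nfkbiz in Ly6Clo MHCIIhi. Of all genes tested, 6.98%, 11.2% and 5.23% lay under that level in these populations, and 4.27% in Ly6Clo MHCIIlo, where no member did. The median log2 fold of ko against ctrl over the members was 0.08, -0.34, -0.41 and -0.10 in Ly6Chi MHCIIhi, Ly6Chi MHCIIlo, Ly6Clo MHCIIhi and Ly6Clo MHCIIlo. The same median over all genes tested was 0.01, -0.02, -0.01 and 0.01. Negative folds were 7 of 9 in Ly6Chi MHCIIlo and 7 of 8 in Ly6Clo MHCIIhi, where 51.4% and 51.9% of all genes' folds were negative.

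**Figure D3:**
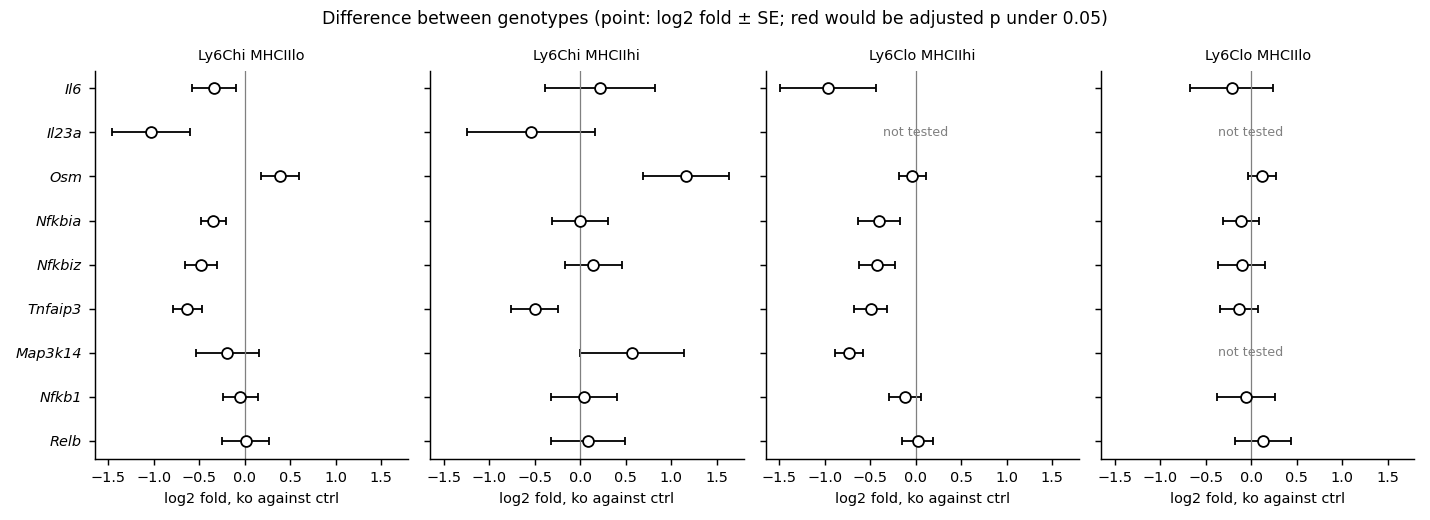
Log2 fold of ko against ctrl (x axis) with its standard error for each of the 9 genes (y axis), 1 panel per population, from edgeR. No point has an adjusted p under 0.05, and genes under the count filter are marked as not tested (Il23a in both Ly6Clo populations, Map3k14 in Ly6Clo MHCIIlo).

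Map3k14 in Ly6Clo MHCIIhi had the smallest p of all 5660 genes tested there. In the 8 ctrl samples it ran from 73.4 CPM through a median of 91.5 to 140, and in the 8 ko samples from 40.8 through 52.4 to 77.4. One ko sample, replicate 4, lay above the lowest ctrl sample, and all 8 lay below the ctrl mean of 96.4 (SD 20). The log2 fold was -0.73 (SE 0.15, p = 6.18e-05), which did not pass adjustment over all genes (adjusted p = 0.350, and 0.215 in DESeq2). With library 1 alone of replicates 1 to 4, all of A/T-rich barcodes, the fold was -0.66 (unadjusted p = 0.0548). With library 1 alone of replicates 5 to 8, all of G/C-rich barcodes, it was also -0.66 (unadjusted p = 0.0119). Both fits were chosen after seeing the data and reuse the samples that gave the smallest p, so they are not independent support. In Ly6Clo MHCIIlo the gene was under the count filter and gave 9.37, 53.9, 34.0 and 40.5 CPM in ctrl and 38.6, 23.8, 22.3 and 24.6 in ko, which overlap.

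The inhibitors were at lower levels in ko than in ctrl samples of Ly6Chi MHCIIlo without passing the test. Tnfaip3 was 788, 841, 696 and 857 CPM in ctrl and 484, 477, 530 and 598 in ko. Nfkbia was 5491, 4799, 4971 and 5603 CPM in ctrl and 4595, 3883, 4234 and 3980 in ko. For both genes the genotypes did not overlap, which held for 6.93% of all genes tested in this comparison. The folds were -0.63 (SE 0.16, p = 0.00117, adjusted p = 0.186) for Tnfaip3 and -0.35 (SE 0.14, p = 0.0222, adjusted p = 0.372) for Nfkbia. Nfkbiz was 904, 726, 992 and 982 CPM in ctrl and 761, 718, 569 and 575 in ko, which overlap, with a fold of -0.48 (SE 0.18, adjusted p = 0.322).

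Barcode class moves with genotype in that population. In a fit of all 8 groups with barcode class as a term, the folds there were -0.32 for Tnfaip3, -0.12 for Nfkbia and -0.24 for Nfkbiz. Immediate early and heat shock genes, which rise while tissue is being dissociated, move with genotype in Ly6Chi MHCIIlo too. The summed level of the list had a median of 20090 CPM in ctrl, from 17230 to 32260, and 15040 in ko, from 14360 to 17880. Of 23 such genes with a row, 20 were tested and all 20 had negative folds, none of them called. Between G/C-rich and A/T-rich libraries of the same Ly6Clo MHCIIhi replicate, 21 were tested, with 14 negative and 7 positive folds. Junb alone was called, lower with G/C-rich barcodes (-0.28, SE 0.067, adjusted p = 0.0235), where 1.8% of all genes were called. The part of these genes in the inhibitors' values was not tested.

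In Ly6Clo MHCIIhi the inhibitors also had lower levels in ko, and 1 ctrl library carried part of this. Tnfaip3 ran from 406 CPM through a median of 618 to 1087 in ctrl and from 351 through 433 to 671 in ko (-0.50, SE 0.18, adjusted p = 0.888). Nfkbiz ran from 331 through 459 to 850 in ctrl and from 261 through 357 to 696 in ko (-0.42, SE 0.20, adjusted p = 0.933). Nfkbia ran from 1488 through 2061 to 6048 in ctrl and from 1279 through 1807 to 3097 in ko (-0.41, SE 0.23, adjusted p = 0.951). The genotypes overlapped for each. Over the other settings, among them a fit with barcode class, the folds ran from -0.62 to -0.42 for Tnfaip3, -0.48 to -0.38 for Nfkbiz and -0.58 to -0.20 for Nfkbia. The ctrl maximum was replicate 3 for all 3 genes, and without it the folds were -0.35, -0.28 and -0.09. Summed immediate early and heat shock genes had medians of 21830 CPM in ctrl, from 17300 to 30660, and 16960 in ko, from 13900 to 22800, and their part was not tested.

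Among the cytokines, Osm had higher ko than ctrl levels in Ly6Chi MHCIIhi. It was 133, 875 and 895 CPM in ctrl and 2042, 999, 1537 and 1704 in ko, so the genotypes did not overlap, which held for 11.3% of all genes tested there. The fold was 1.17 (SE 0.47, p = 0.0296, adjusted p = 0.709), and without the haemoglobin-rich ctrl library it was 0.74 (adjusted p = 0.934). With all 8 groups in 1 fit, which shares the estimate of spread between populations, Osm was called there (1.27, adjusted p = 0.0458). The monocyte markers (11 of 12 listed had a row) had summed medians of 4423 CPM in ctrl, from 2775 to 5618, and 6529 in ko, from 5362 to 8263, and their part was not tested. In Ly6Chi MHCIIlo, Osm was 1933, 1039, 1654 and 1192 CPM in ctrl and 2028, 1351, 2152 and 2244 in ko, which overlap (0.39, SE 0.21, adjusted p = 0.50). In Ly6Clo MHCIIlo it was 520, 633, 616 and 506 in ctrl and 635, 609, 607 and 619 in ko, and in Ly6Clo MHCIIhi the medians were 487 and 503.

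Il23a in Ly6Chi MHCIIlo was 59.6, 73.6, 78.1 and 39.0 CPM in ctrl and 49.9, 44.6, 24.6 and 8.50 in ko. The ranges overlapped, all 4 ko samples lay below the ctrl mean of 62.6, and the fold was -1.03 (SE 0.43, p = 0.0297, adjusted p = 0.399). It was -0.62 in the fit of all 8 groups with barcode class, which took each library as its own sample. In Ly6Clo MHCIIlo, where it was under the count filter, Il23a was 9.37, 74.1, 26.5 and 45.5 CPM in ctrl and 11, 33.3, 11.1 and 0 in ko. Il6 in Ly6Clo MHCIIhi ran from 23.3 through a median of 36.3 to 369 in ctrl and from 2.37 through 37.4 to 69.0 in ko. Its medians were close while its means were 83.1 ± 118 and 38.9 ± 25.3 (SD, n = 8 each), and the fold of -0.96 (SE 0.53, adjusted p = 0.951) became -0.41 without ctrl replicate 3. Without the count filter it was called (-0.96, adjusted p = 0.00603).

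The subunits had small folds with wide errors between genotypes. In Ly6Chi MHCIIhi, Nfkb1 was 83.1, 150 and 297 CPM in ctrl and 180, 184, 201 and 335 in ko (0.04, SE 0.36), and Relb was 66.5, 25.0 and 191 in ctrl and 106, 137, 161 and 166 in ko (0.08, SE 0.41). All 4 ko samples lay above the ctrl mean for both genes, while the ranges overlapped. In Ly6Chi MHCIIlo, Nfkb1 was 225, 212, 272 and 199 CPM in ctrl and 184, 187, 277 and 247 in ko (-0.05, SE 0.19), and Relb was 72.8, 129, 119 and 133 in ctrl and 84.2, 111, 155 and 113.3 in ko (0.01, SE 0.26). In Ly6Clo MHCIIhi their folds were -0.12 (SE 0.17) and 0.02 (SE 0.17). In Ly6Clo MHCIIlo the folds of the 7 tested members ran from -0.21 to 0.13, all with an adjusted p of 0.999.

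Whether the genotype difference itself varied between populations was tested with 3 interaction terms together. None of the 9 genes was called by edgeR, where 0.0663% of all genes were. Osm (p = 0.0102, adjusted p = 0.627) and Map3k14 (p = 0.0443, adjusted p = 0.728) had an unadjusted p under 0.05, as did 6.66% of all genes. Libraries of the same Ly6Clo MHCIIhi replicate with a G/C-rich and an A/T-rich barcode were compared as a technical control. This was possible in 5 replicates, ctrl 5 to 8 and ko 4. Of all genes called in that comparison, 82 were lower and 7 higher with G/C-rich barcodes. None of 8 members tested was called by edgeR there, where 1.8% of all genes were, and the largest of their folds in size was -0.26 for Map3k14 (SE 0.17, adjusted p = 0.728).

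The wider pathway was described with 5 lists of subunits and inhibitors, kinases and adaptors, brakes, target genes, and cytokine receptors with the STAT3 arm, of which 109 of 117 other genes have a row. In Ly6Clo MHCIIlo against Ly6Chi MHCIIlo, 47 of 87 tested were lower and 8 higher, with a median log2 fold of -0.56 against 0.05 over all genes. Of all genes tested in this contrast, 18.2% were called lower and 37.4% in either direction, shares to be set beside each list's count. Subunits and inhibitors gave 5 lower of 7, among them Bcl3, an atypical IkB protein (-1.26, SE 0.19, adjusted p = 7.80e-06), and Nfkbib, which encodes IkB-beta (-1.24, SE 0.19, adjusted p = 9.07e-06). Kinases and adaptors gave 7 lower and 1 higher of 17, with Traf1, a TNF receptor adaptor, at -1.63 (SE 0.16) and Ripk2, the kinase of NOD receptors, at -2.10 (SE 0.38). The one higher was Irak1, a kinase of the IL-1 and Toll-like receptors (1.0, SE 0.28).

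Brakes gave 4 lower and 1 higher of 13 in the same comparison, near the 37.4% of all genes called in either direction. Among the lower ones were the A20 partner Tnip1 at -0.96 (SE 0.17) and the RNase gene Zc3h12a at -0.71 (SE 0.14). Target genes gave 24 lower and 5 higher of 40. The C-type lectin gene Clec4e (-1.44, SE 0.14) and the urokinase receptor gene Plaur (-1.02, SE 0.14) were lower, while the adhesion gene Vcam1 (3.17, SE 0.30) and the growth factor gene Csf1 (3.39, SE 0.35) were higher. Receptors and the STAT3 arm gave 8 lower and 1 higher of 12, with the TNF receptor gene Tnfrsf1b at -1.33 (SE 0.13), the STAT3 inhibitor gene Socs3 at -1.40 (SE 0.15) and the IL-6 receptor gene Il6ra at -1.18 (SE 0.17). Macrophage markers move with this contrast too, as given above, and their part was not tested.

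The other contrasts of Ly6Clo with Ly6Chi gave 45 lower and 13 higher of 96 (Ly6Clo MHCIIhi against Ly6Chi MHCIIlo), 19 lower and 4 higher of 93 (Ly6Clo MHCIIhi against Ly6Chi MHCIIhi), and 27 lower and 3 higher of 82 (Ly6Clo MHCIIlo against Ly6Chi MHCIIhi). Of all genes tested, 21%, 7.45% and 11.8% were called lower in these contrasts, and 42.3%, 15.8% and 23.4% in all. In the first, Myd88, the adaptor of Toll-like and IL-1 receptors, was lower (-0.90, SE 0.14, adjusted p = 6.80e-06), as was Rela, the p65 subunit gene (-0.65, SE 0.12, adjusted p = 6.45e-05), while Vcam1 (4.10, SE 0.27, adjusted p = 1.56e-13) and Tnfaip8l2, a brake on Toll-like receptor signalling (0.86, SE 0.16, adjusted p = 5.77e-05), were higher. In the second, Nfkb2, the second-branch subunit gene, was lower (-0.76, SE 0.20, adjusted p = 0.00920), while Vcam1 (2.92, SE 0.29, adjusted p = 5.77e-08) and Ebi3, which encodes a subunit of IL-27 (1.10, SE 0.23, adjusted p = 0.00120), were higher. In the third, Nfkbie, which encodes IkB-epsilon, was lower (-1.18, SE 0.19, adjusted p = 0.000181), while Csf1 (2.54, SE 0.32, adjusted p = 7.66e-06) and Vcam1 (1.90, SE 0.33, adjusted p = 0.000343) were higher.

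Between the Ly6Clo populations the direction of most calls was the reverse, with 19 higher and 4 lower of 87 in MHCIIhi and a median of 0.16 against -0.01 over all genes. Of all genes, 11.9% were called higher, 13.6% lower and 25.5% in all, so the total called was near the share of all genes. Cd83, a marker of antigen-presenting cells that is an NF-kB target, was higher (1.74, SE 0.15, adjusted p = 4.32e-10), as were Traf1 (1.14, SE 0.19), Nfkbib (0.92, SE 0.17), Nfkbie (0.75, SE 0.15) and Map3k8, which encodes the kinase TPL2 (0.71, SE 0.16). Csf1 was lower (-1.98, SE 0.22, adjusted p = 1.16e-07). Dendritic cell markers were highest in Ly6Clo MHCIIhi, with summed medians of 813 CPM in ctrl and 695 in ko against 329 to 418 in the other groups, and their part was not tested. Between the Ly6Chi populations 3 were higher and 1 lower of 90, where 2.86% of all genes were called in either direction. The 3 are Bcl2a1a, Bcl2a1b and Bcl2a1d, near-identical copies whose counts are uncertain, and the 1 is Ccl2, a monocyte chemokine gene (-1.17 in MHCIIhi, SE 0.26, adjusted p = 0.0141).

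Between genotypes none of these pathway genes was called by edgeR, of 79, 86, 93 and 72 tested in Ly6Chi MHCIIhi, Ly6Chi MHCIIlo, Ly6Clo MHCIIhi and Ly6Clo MHCIIlo. At an unadjusted p under 0.05 there were 1, 13, 10 and 3, to be read against the 6.98%, 11.2%, 5.23% and 4.27% of all genes. In Ly6Clo MHCIIhi 72 of 93 folds were negative, with a median of -0.20, and in Ly6Chi MHCIIlo 55 of 86, with a median of -0.14.

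The members varied together to different degrees over the 39 samples, which share their libraries' depth and population. Of 36 pairs of members, 33 had a positive Spearman correlation and 16 exceeded 0.5, with a median of 0.45. The highest was Nfkbia with Nfkbiz at 0.86, and 0.79 with each group's mean removed. With group means removed, the median fell to 0.28 and the highest was Il6 with Nfkbia at 0.82. These are descriptions, since samples of a population are alike.

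**Figure D4:**
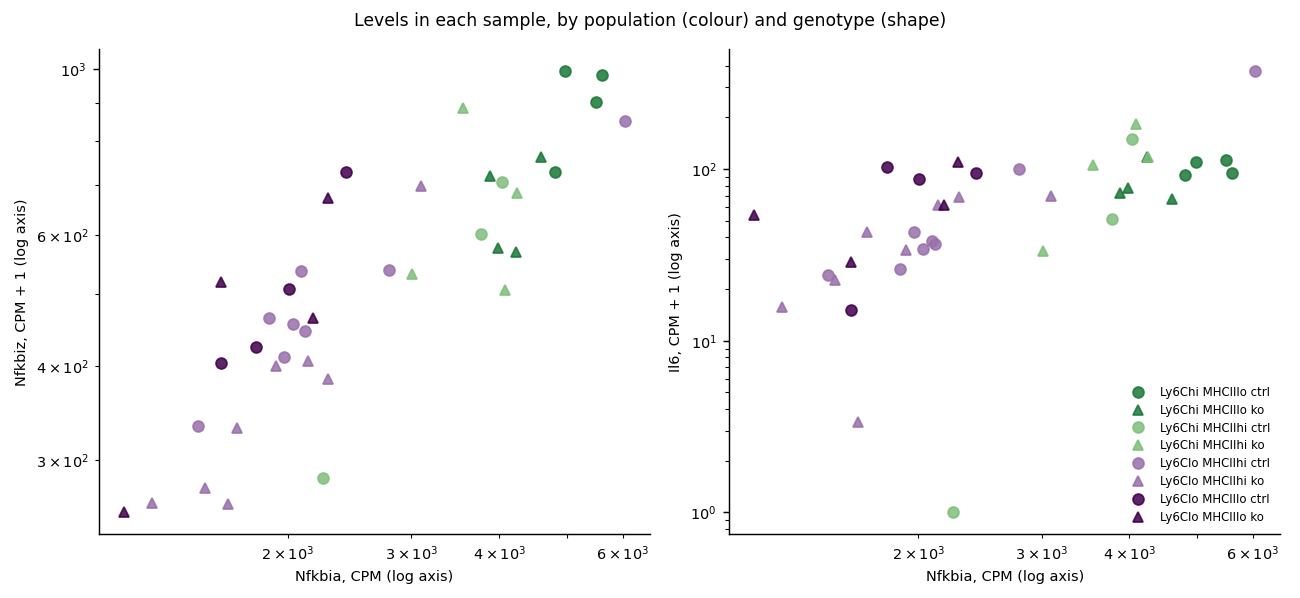
Nfkbia (CPM, log axis) against Nfkbiz (CPM, log axis) and against Il6 (CPM + 1, log axis), 1 point per sample for 39 samples, coloured by population with the genotype as shape. Ly6Clo MHCIIhi ctrl 3 is the point with the highest Nfkbia (6048 CPM) and Il6 (369 CPM).

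The genes most like each member by Spearman correlation over the 39 samples were named by rule. Nfkbiz was nearest to Nlrp3 (0.89), Il1a (0.86) and Ptgs2 (0.86), and Il6 to Cxcl2 (0.84), Il1a (0.81) and Nlrp3 (0.78). Nfkbia was nearest to F10 (0.89), Il1b (0.88) and Jarid2 (0.87), and Nfkb1 to Tnfrsf1b (0.87), Arid5a (0.87) and Csrnp1 (0.86). Osm was nearest to Tpd52 (0.85), Ace (0.85) and Cndp2 (0.85), and Tnfaip3 to Nr4a1 (0.75), Nfkbia (0.71) and Ifrd1 (0.71). Of the remaining members, Il23a had Nfkbiz (0.79), Bcl2l11 (0.71) and Cd53 (0.67), Map3k14 had Pmaip1 (0.77), Ahr (0.66) and Epsti1 (0.65), and Relb had Cd40 (0.67), Fam96b (0.67) and Bcl2a1d (0.66).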

How the data were processed

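The authors deposited whole-number counts for each library and gene symbol, and no normalization of them is recorded. Libraries were made by 3′ sequencing of poly(A) RNA, per the labels' protocols. The genome build GRCm38 and the tools R 3.4.4 and DESeq2 1.18.1 are named per the submitters' processing notes. Aligner, counting tool, annotation and any use of molecular identifiers are not given in the sources, so floors and intervals cover counting error only. All 48 columns matched the labels. A row that names no gene (127 counts, 0.000967%) was removed.

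Groups came from the labelled population and genotype. The 2 libraries of 8 replicates were summed, and libraries under 0.1 of the median total (28006 counts) were left out, which removed 1 of 48. Library totals ran from 8409 to 500683. Levels are CPM over TMM-scaled library sizes. Genes were kept by filterByExpr (minimum count 10, minimum total 15), tested with edgeR 4.0.16 (quasi-likelihood F test, R 4.3.3) and adjusted by Benjamini-Hochberg over all genes tested. The test was checked on simulated data. Coordinates are from GENCODE M21 (GRCm38), and promoters from RefSeq (GRCm38.p6). Barcode class is G/C-rich where at least 3 of the 6 bases are G or C.

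All members are described. From each pathway list, up to 3 genes per direction with the smallest p among those called are named, and for each member with a mean of at least 20 CPM the 3 genes with the highest Spearman correlation of log2(CPM + 1). Predicted genes are not named. The members and lists were chosen with earlier results of these data known. No replicates were alike enough to be 1 library deposited again.

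Other settings tried were all libraries kept, no count filter, the test of DESeq2 1.42.0 or its size factors in edgeR, a replicate block, library 1 only, all 8 groups in 1 fit, each library as its own sample with and without barcode class, ctrl samples only, replicates under 100000 counts left out, and each replicate left out. The fits of replicates 1 to 4 and 5 to 8 alone, and the alternatives for the barcode comparison, were chosen after seeing the data.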

Additional observations from a re-analysis of the deposited data

Results flagged for a closer look

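In groups of 4 to 8 samples, a sample was looked at again where it stood off from the rest of its group by more than Dixon's 95% limit, which chance exceeds in about 1 of 20 groups. Of 63 combinations of gene and group, 9 did so, in 5 samples, where 3.15 would be the chance number.

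Ly6Clo MHCIIhi ctrl 3 accounted for 4 of them. It had Il6 at 369.3 CPM with the next sample at 99.4, Nfkbia at 6048 with the next at 2783, Nfkbiz at 850.1 with the next at 538, and Tnfaip3 at 1087 with the next at 721. In the same population, ko 3 had Il23a at 72.09 CPM (next 17.9) and Nfkbiz at 695.9 CPM (next 406), and ctrl 2 had Il23a at 73.95 CPM (next 37.1), which rests on 4 counts. Ly6Clo MHCIIlo ko 1 had Map3k14 at 38.63 CPM (next 24.6) on 7 counts. Ly6Chi MHCIIhi ko 4 had Nfkb1 at 335.2 CPM (next 201).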

How the results depend on the processing

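Counts of members called were computed for 12 comparisons under 249 alternatives, of which 233 stayed within 1.5 times and 16 did not. Single-gene results were followed only where the unadjusted p of the reported fit was small, which left 51, called or not. The largest such p was 0.0966, for Relb in Ly6Clo MHCIIlo against Ly6Chi MHCIIlo. These results had 1123 alternatives: 1029 kept their side of the threshold, 54 lost it, 40 gained it, and none reversed. Keeping a side includes genes that stayed uncalled. The results were chosen by p in the same samples, so the absence of reversals is not a test of direction. With all 8 groups in 1 fit, with libraries also kept separate, and with barcode class also added, the Ly6Chi MHCIIhi genotype comparison gave 1 call each (Osm), as did Ly6Chi MHCIIhi against Ly6Chi MHCIIlo (Osm). Without the count filter, the Ly6Clo MHCIIhi genotype comparison gave 1 (Il6) and the interaction 1 (Osm). Ly6Clo MHCIIhi against Ly6Clo MHCIIlo gave 1 (Map3k14) with the replicate block and 1 with ctrl samples only. Ly6Clo MHCIIhi against Ly6Chi MHCIIhi gave 0 with both. Ly6Clo MHCIIlo against Ly6Chi MHCIIhi gave 7 without replicates under 100000 counts and 0 with ctrl samples only. Fits on ctrl alone have fewer samples, and their folds were smaller in size for some genes and larger for others, as given above. The cause of these changes was not tested.

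Leaving out 1 replicate gave 2 to 7 calls in Ly6Clo MHCIIlo against Ly6Chi MHCIIhi, 2 to 3 in Ly6Clo MHCIIhi against Ly6Clo MHCIIlo, 3 to 6 against Ly6Chi MHCIIhi, 5 to 6 against Ly6Chi MHCIIlo, 5 to 7 in Ly6Clo MHCIIlo against Ly6Chi MHCIIlo, and 0 in all others. Equal replicate numbers were not treated as pairs, since in no comparison did every pair's deviations correlate above 0.1 (range -0.167 to 0.28). In Ly6Chi MHCIIhi against Ly6Chi MHCIIlo all 7 pairs were positive (0.072 to 0.247) and 4 exceeded 0.1, all of them ko, and the replicate block gave 0 calls there, as without it. With the replicate block the other counts were 6 in Ly6Clo MHCIIlo against Ly6Chi MHCIIlo, 4 in Ly6Clo MHCIIhi against Ly6Chi MHCIIlo, 5 in Ly6Clo MHCIIlo against Ly6Chi MHCIIhi, and 0 between genotypes. The calls lost with the block were those of Osm (adjusted p = 0.099), Il23a (0.148), Nfkbia (0.123) and Nfkb1 (0.0579) in Ly6Clo MHCIIhi against Ly6Chi MHCIIhi, Osm (0.172) and Relb (0.121) against Ly6Clo MHCIIlo, and Il23a (0.102) and Map3k14 (0.139) against Ly6Chi MHCIIlo.

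Calls over all genes moved more. Between genotypes they were 0, 3, 0 and 1 in Ly6Chi MHCIIhi, Ly6Chi MHCIIlo, Ly6Clo MHCIIhi and Ly6Clo MHCIIlo, and at most 61, 57 and 24 in the last 3 under an alternative, and 28 in the first when 1 replicate was left out, with more there without the count filter. Between populations they ran from 0 to 342 (136 as reported) for the Ly6Chi pair, 325 to 1374 (1229) for the Ly6Clo pair, 56 to 1091 (873) for the MHCIIhi pair, 766 to 2011 (1623) for the MHCIIlo pair, 1257 to 3000 (2413) for Ly6Clo MHCIIhi against Ly6Chi MHCIIlo and 31 to 1323 (977) for Ly6Clo MHCIIlo against Ly6Chi MHCIIhi. The interaction gave 0 to 112 (4) and the barcode comparison 33 to 122 (89). Depth limits Il6, Il23a and Map3k14 most, since several of their values rest on fewer than 10 counts.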

Other observations

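The library of Ly6Chi MHCIIhi ctrl 2, left out at 8409 counts, held 25 counts of Nfkbia, 11 of Osm, 11 of Tnfaip3, 2 of Nfkbiz, 2 of Nfkb1 and 1 of Il23a. Il6, Map3k14 and Relb had 0 counts there. No count rate was taken from it.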
